A study of Mus musculus with 19 samples.

Results

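The transition across birth was examined in whole mouse ovaries by comparing postnatal day (pnd) 2 with gestation day (gd) 18. The comparison was made on the 3 arrays labelled pnd2 and the 3 labelled gd18, out of 19 arrays in the series, and 12592 genes were tested. All 6 samples came from wild-type female mice of the outbred CD-1 strain, with no treatment named in the labels. Each was the ovary pair of 1 animal from a dam of its own, per the series' text, and was not pooled, per the labels. No cell type was purified, so each value is an average over germ cells, pregranulosa cells, stroma, vessels and blood. The other 12 ovary arrays, of gd11, gd12, gd14 and gd16, entered the estimate of the spread, and the array of a whole-animal reference pool was left out of the tests. The labels give the gd11, gd12 and gd14 samples as pools of 3, whereas the series' text describes 1 animal per sample. Pools may vary less than single animals, and what this does to the shared spread was not tested.

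In the fetal mouse ovary germ cells enter meiosis, pass through the pairing and recombination steps of the first prophase and arrest at its end around birth. The nests in which they lie then break apart, many oocytes are lost, and pregranulosa cells enclose the remaining ones as primordial follicles. Oocytes that start to grow deposit the zona pellucida, a glycoprotein coat, and store RNAs and proteins for the early embryo.

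Values are signal intensities scaled by the authors to one trimmed mean of 500 for every array, so a change is relative to the rest of the ovary's RNA. In such whole-organ samples, fewer cells of a type and less RNA per cell cannot be told apart. Log2 changes are of log2(signal + 31.48), a scale that compresses changes at low signal, and are given as pnd2 minus gd18 with the standard error (SE) of the limma fit, with n = 3 arrays in each group. Calls were made at adjusted p below 0.05, and a gene is represented by its brightest probe set. Signals are listed in array order, arrays 4, 5 and 6 for gd18 and arrays 1, 2 and 3 for pnd2.

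The arrays of each stage resembled each other more than those of the other stage. Over the tested probe sets, log2 signals correlated at 0.962 to 0.977 among the pnd2 arrays and at 0.967 to 0.971 among the gd18 arrays, against 0.921 to 0.945 between them. Xist, which is transcribed from an inactive X chromosome, gave 11306 to 18141 on the 6 arrays, which fits the label female. The 4 Y-linked genes examined gave at most 84.4 there. On the whole-animal reference array they gave at most 68.9, so their probe sets were not shown to detect Y-linked expression. Their low signals are therefore no evidence of sex. On gd16 array 7, which entered only the spread and the earlier stage values, Xist gave 44.8, against the label, and the Y-linked genes at most 64.4. Without that array 3579 probe sets were called. As a measure of RNA and amplification quality, the Gapdh control sets gave 3′ over 5′ ratios of 5.07 to 5.41 at pnd2 and 4.85 to 5.2 at gd18, and the Actb sets ratios of 2.08, 2.68 and 3.36 on pnd2 arrays 1, 2 and 3 and 2.68 to 2.99 at gd18.

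Of 26431 probe sets tested, 3446 (13%) were called, 1748 higher and 1698 lower at pnd2. Scaling the arrays to one median shifted this split to 1929 higher and 1162 lower, and moved the median change of all probe sets from -0.06 to 0. At the level of genes, 1938 (15.4%) were called, of which 1071 (8.51% of those tested) were higher and 867 (6.89%) lower at pnd2. The rises were the larger changes, with 492 genes higher and 262 lower by at least 2-fold, and 124 higher and 36 lower by at least 4-fold. Of all genes tested, 282 passed the filter on low signal through pnd2 alone, and 164 of them were called higher. For these a rise was close to fixed in advance, which bears on the split between rises and falls. With the spread taken from the 6 compared arrays alone, 2703 probe sets were called. Without pnd2 array 1 the probe sets called dropped to 1842, and without gd18 array 6 to 2161. The lower calls dropped to 791 without pnd2 array 1, 962 without gd18 array 6 and 1033 without gd18 array 5. The 3 pnd2 arrays lay entirely above the 3 gd18 arrays for 1045 of the 1071 genes called higher, and entirely below for 848 of the 867 called lower, beside the 15.4% of genes called in all. Over all genes tested, called or not, the pnd2 arrays lay above in 2082 and below in 2234, so that 34.3% had arrays that did not overlap, and arrays apart are no call by themselves.

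**Figure D1:**
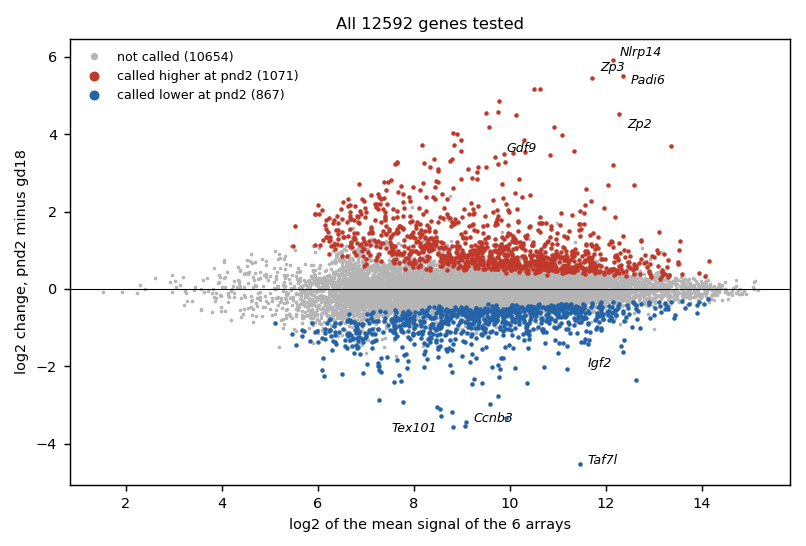
Each point is 1 of the 12592 genes tested, placed by the log2 of its mean signal on the 6 arrays (x) and by its log2 change from gd18 to pnd2 (y). Genes called higher at pnd2 (1071, red) reach log2 changes of 5.93 (Nlrp14), and genes called lower (867, blue) reach -4.53 (Taf7l).

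The clearest change was in genes of the growing oocyte. All 3 genes of the mouse zona pellucida rose, with a median log2 change of 4.53 against -0.03 for all genes tested. Zp3, which encodes the zona protein that sperm were first shown to bind in the mouse, had signals of 145, 115 and 86.3 at gd18 and 9389, 5042 and 5275 at pnd2 (log2 change 5.45 ± 0.31 (SE), adjusted p = 4.16e-09). Every pnd2 array was far above every gd18 array. Zp2, a further filament protein of the coat, read 538, 401 and 239 at gd18 and 11298, 9131 and 7939 at pnd2 (log2 change 4.53 ± 0.33 (SE), adjusted p = 7.99e-08). Zp1, which cross-links the filaments, read 73, 80.1 and 26.9 at gd18 and 3280.3, 2337 and 968 at pnd2 (log2 change 4.50 ± 0.43 (SE), adjusted p = 1.6e-06). For Zp1 and Zp2 too the groups stood well apart, and in all 3 genes pnd2 array 1 was the highest. The mean signals of Zp2 had been 24 at gd14 and 31.9 at gd16 (45.2 without array 7), against 393 at gd18. Zp1 and Zp3 passed the filter on low signal through pnd2 alone, so for them the test could hardly have gone otherwise.

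Promoters, 250 bases before to 50 bases after the annotated start, are shown for oocyte genes of the named panel that were called higher. Zp1, Zp2, Zp3, Gdf9, Nlrp5, Oosp1, Dppa3 and Trp63 were looked up, and the sequences are those found for Zp3, Nlrp5 (with 2 starts) and Oosp1 in RefSeq's table of build GRCm38.p6. Capitals mark each E-box, CANNTG, the motif read by basic helix-loop-helix factors such as FIGLA, which is known to bind E-boxes of the zona genes.
Zp3, chr5:135979855-135980154, plus strand: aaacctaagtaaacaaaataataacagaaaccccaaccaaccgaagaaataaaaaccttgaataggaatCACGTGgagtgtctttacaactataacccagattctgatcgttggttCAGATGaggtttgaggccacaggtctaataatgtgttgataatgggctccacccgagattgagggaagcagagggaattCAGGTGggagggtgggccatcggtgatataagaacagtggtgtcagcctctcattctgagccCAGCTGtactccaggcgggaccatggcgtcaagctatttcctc
Nlrp5, chr7:23403852-23404151, plus strand: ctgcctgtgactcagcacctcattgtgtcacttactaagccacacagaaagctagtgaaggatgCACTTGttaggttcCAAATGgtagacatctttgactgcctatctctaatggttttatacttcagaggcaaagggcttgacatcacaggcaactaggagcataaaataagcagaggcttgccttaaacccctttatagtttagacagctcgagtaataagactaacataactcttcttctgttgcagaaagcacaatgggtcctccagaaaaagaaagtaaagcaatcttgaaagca
Nlrp5, chr7:23385639-23385938, plus strand: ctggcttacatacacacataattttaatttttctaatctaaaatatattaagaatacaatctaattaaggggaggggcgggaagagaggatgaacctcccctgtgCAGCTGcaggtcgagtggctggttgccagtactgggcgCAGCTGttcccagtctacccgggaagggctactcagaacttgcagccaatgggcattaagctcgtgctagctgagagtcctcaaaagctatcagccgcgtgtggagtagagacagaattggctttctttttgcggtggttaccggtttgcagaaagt
Oosp1, chr19:11691002-11691301, minus strand: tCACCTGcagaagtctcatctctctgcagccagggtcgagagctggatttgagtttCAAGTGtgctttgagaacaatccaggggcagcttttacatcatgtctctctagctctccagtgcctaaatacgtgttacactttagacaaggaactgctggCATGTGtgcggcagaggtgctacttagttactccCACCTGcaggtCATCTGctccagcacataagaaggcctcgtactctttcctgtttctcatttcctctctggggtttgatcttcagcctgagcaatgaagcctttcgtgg
The Zp3 promoter held 4 E-boxes, including a CAGGTG that begins at position -55 from the start and a CAGCTG at position 8. Oosp1, which encodes an oocyte-secreted protein, had 5 E-boxes, among them CACCTG at positions -249 and -59. Of the Nlrp5 starts, the one at 23403852 had CACTTG and CAAATG, and the other had CAGCTG at -145 and at -107. TAATTG, an element of the homeobox factor NOBOX and the only form searched, was on neither strand of these 4 windows.

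Across genes, 83% of the promoters of genes called higher by at least 4-fold held an E-box, against 63% of the promoters of all genes tested and 72.1% of all promoters in the table. The form CAGGTG or CACCTG was in 42% of them, against 17.7% for all genes tested, 16.5% for genes called lower and 20% for the whole table. CAGCTG, which reads alike on both strands, was in 32%, against 15.1% for genes tested and 16.1% for the table. The element TAATTG or CAATTA was in 7%, against 4.6% and 8.2%, and TATAAA or TTTATA in 17%, against 7.3% and 14.2%. TATAAA or TTTATA was also in 26.9% of the 26 promoters found for genes called lower by at least 4-fold. These shares rest on 100 promoters for genes higher by at least 4-fold and on 10175 for all genes tested, and both CAGGTG and CAGCTG are E-boxes, so the counts overlap. A match of letters is no measure of binding.

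Most of the listed genes whose products are stored in the oocyte for the embryo rose. This list, like the other lists here, was chosen with earlier results of these data known, so its share is a description and no test. Of 52 listed maternal-effect and late oocyte genes, 44 were on the table and 36 passed the filter, and 32 of the 36 were called higher and 0 lower, against 8.51% and 6.89% of all genes, with a median log2 change of 2.67. Because 13 of the 36 passed through pnd2 alone, the count is also given for the other 23, of which 19 were called higher. The other 8 members were not tested. The list count lay between 31 and 33 without any 1 array.

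Nlrp14, an oocyte member of the NLR family, showed the largest rise of all named genes, with 202, 97.6 and 71.2 at gd18 and 10272, 8612 and 7851 at pnd2 (log2 change 5.93 ± 0.34 (SE), adjusted p = 4.16e-09). Padi6, an enzyme-family protein of the oocyte's cytoplasmic lattices, read 304, 148 and 154 at gd18 and 13106, 10044 and 7771 at pnd2 (log2 change 5.50 ± 0.30 (SE), adjusted p = 4.16e-09). In both genes the lowest pnd2 array was far above the highest gd18 array. Nlrp5, known as MATER and needed by the embryo past its first cleavages, was already present at gd18, with 1882, 1799 and 938 at gd18 and 20627, 20367 and 17103 at pnd2 (log2 change 3.69 ± 0.32 (SE), adjusted p = 5.79e-07). Its mean signal had been 13.6 at gd14 and 139.9 at gd16 (182 without array 7). Partners of NLRP5 in the subcortical maternal complex moved the same way, with log2 changes of 3.99 ± 0.24 (SE) for Ooep, 3.48 ± 0.26 for Khdc3 and 1.90 ± 0.22 for Tle6, genes chosen after their values were seen. Oas1c and Oas1h, oocyte-expressed relatives of the interferon-induced oligoadenylate synthetases, rose by 5.17 ± 0.38 and 4.03 ± 0.40. Their near-identical paralogs may share probe signal. Btg4, an adaptor for the removal of maternal RNA after ovulation, rose by 4.19 ± 0.31, and Wee2, a kinase that holds oocytes in meiotic arrest, by 4.19 ± 0.30. Mos, the kinase upstream of MAP kinase in meiotic oocytes, rose by 2.78 ± 0.37 and was also chosen after its values were seen. Dppa3, known as Stella, read 1508, 1891 and 918 at gd18 and 5809, 4028 and 3836 at pnd2 (log2 change 1.68 ± 0.33 (SE), adjusted p = 0.00227). Oas1c, Oas1h, Wee2 and Mos passed the filter through pnd2 alone. So did Dcpp1, Khdc1b and Elobl, which completed the 12 largest rises, at 5.16, 4.86 and 4.55.

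**Figure D2:**
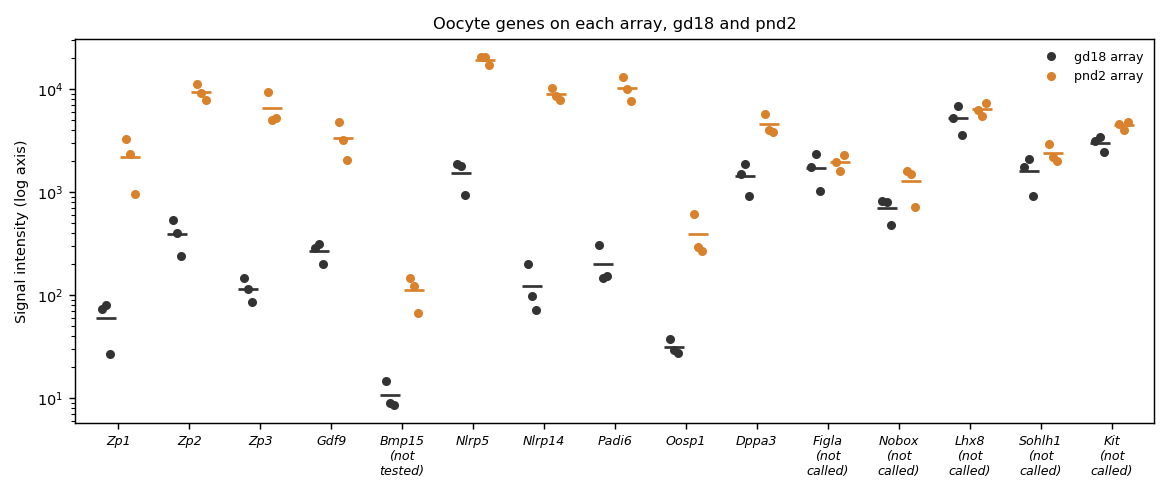
Signal intensity on a log axis for 15 oocyte genes, with 1 point per array (dark, gd18; orange, pnd2) and a bar at the mean of the 3 arrays. Zp1, Zp2, Zp3, Gdf9, Nlrp5, Nlrp14, Padi6 and Oosp1 are separated by a wide gap, whereas the arrays of Figla, Nobox, Lhx8 and Sohlh1 overlap.

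Several genes for signals that oocytes send to their follicle cells also rose. Of 12 listed secreted and surface genes, 10 were tested, 7 of them called higher (70%, against 8.51% of all genes) and 0 lower, with a median of 1.13. Since 4 of the 10 passed the filter through pnd2 alone, among them Astl and Oosp1, the count without them was 4 of 6. Gdf9, the oocyte growth factor without which follicles stop at the primary stage, read 286, 312 and 199 at gd18 and 4847, 3229 and 2050.2 at pnd2 (log2 change 3.46 ± 0.27 (SE), adjusted p = 1.7e-07). Its partner Bmp15 stayed below the filter and was not tested, with 14.6, 8.98 and 8.54 at gd18 and 147, 123 and 66.4 at pnd2. The pnd2 values of Gdf9 and Bmp15 all exceeded the gd18 values. Astl, the protease ovastacin that cleaves ZP2 after fertilization, rose by 3.85 ± 0.35 and the oocyte-secreted Oosp1 by 2.67 ± 0.33. Gja4, the connexin of the oocyte's gap junctions, read 709.9, 489.5 and 443 at gd18 and 1829.8, 1512 and 1182 at pnd2 (log2 change 1.42 ± 0.27 (SE), adjusted p = 0.00193). Kit, the receptor through which follicle cells stimulate oocyte growth, read 3113, 3419.7 and 2434 at gd18 and 4578, 4031 and 4789 at pnd2 and was not called (adjusted p = 0.0597), although its arrays did not overlap.

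Figla, Nobox, Lhx8 and Sohlh1, transcription factors known to act upstream of these genes, were not called at this step. Figla, which is required for the zona genes and for primordial follicles, read 1746, 2361 and 1029 at gd18 and 1948, 1614 and 2281 at pnd2 (adjusted p = 0.69). Nobox, a homeobox factor of the early follicle, read 812, 803 and 477 at gd18 and 1617, 1493 and 720.4 at pnd2 (adjusted p = 0.336). Lhx8 read 5229, 6922 and 3593 at gd18 and 6258, 5464 and 7359 at pnd2 (adjusted p = 0.611). In each of these genes the groups overlapped, and the 95% interval of the log2 change was -0.45 to 0.94 for Figla, -0.26 to 1.86 for Nobox and -0.41 to 1.04 for Lhx8. Sohlh1, a further helix-loop-helix factor, read 1774, 2085 and 928 at gd18 and 2970.1, 2185 and 2013 at pnd2 (adjusted p = 0.182), also with overlap. Its interval was 0.002 to 1.259. Taf4b was not called either, at -0.59 with an interval of -1.10 to -0.09 (adjusted p = 0.114). These intervals are not adjusted for the number of tests, and changes of the sizes they span could have gone undetected. Of the 9 factors tested, Stat3 alone was called higher (11.1%, near the 8.51% of all genes) and 0 were called lower (against 6.89%). Stat3 changed by 0.83 ± 0.20, and its call was lost without pnd2 array 1 or gd18 array 6 (adjusted p = 0.0693 and 0.0535). The 4 tested probe sets of Stat3 ranged from -0.18 to 0.91. Mean signals of Lhx8 went from 138 at gd14 to 983 at gd16 and 5248 at gd18, and of Figla from 334 to 619.6 and 1712. The gd18 arrays are shared between that step and the present one. From gd16 to gd18 the log2 change of Figla was 1.43 ± 0.33 (SE), adjusted p = 0.0123, and that of Lhx8 was 2.50 ± 0.34 (SE), adjusted p = 0.000274. Without gd16 array 7 they were 1.12 (adjusted p = 0.0704) and 2.02 (adjusted p = 0.00165), an alternative chosen after seeing the data, and the gd16 means were 744.9 for Figla and 1257 for Lhx8.

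**Figure D3:**
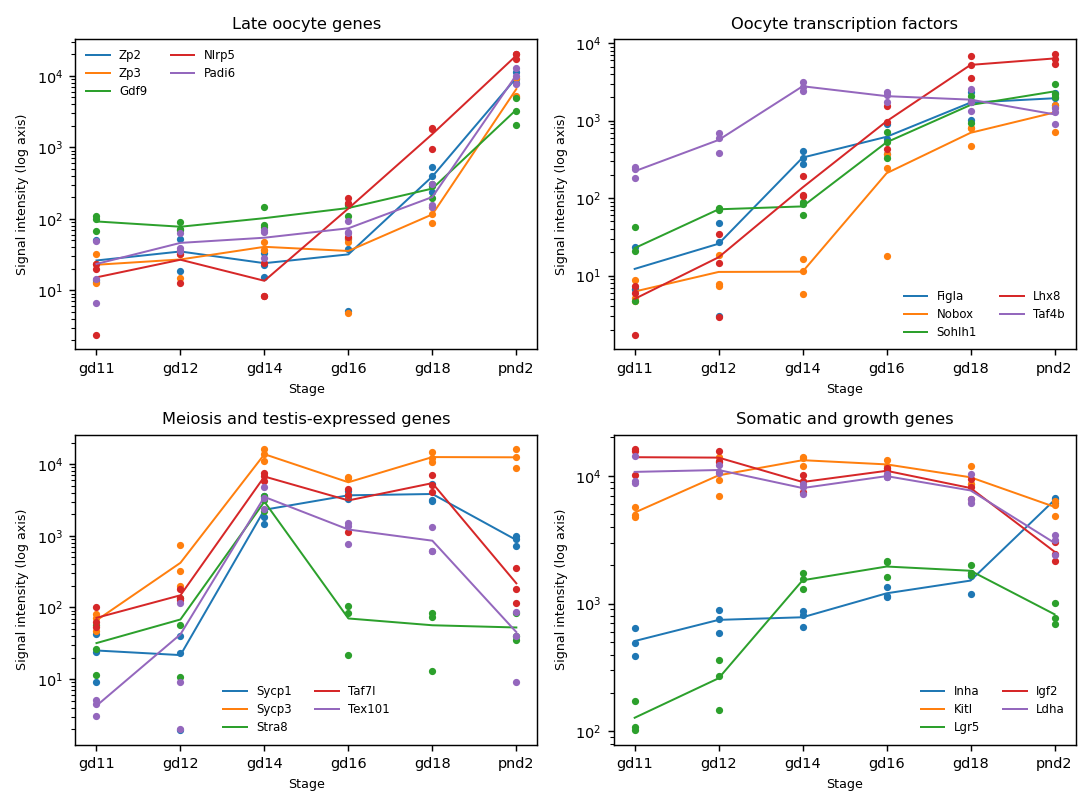
Signal intensity on a log axis through the 6 stages in 4 groups of genes, with 1 point per array and a line through the stage means. Late oocyte genes climb most at the last step (Nlrp5, mean 1540 at gd18 and 19370 at pnd2), the arrays of Figla, Nobox, Sohlh1 and Lhx8 overlap between gd18 and pnd2, and Sycp1, Taf7l and Tex101 drop at pnd2 while the arrays of Sycp3 overlap.

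Genes of the meiotic prophase fell, though not all of them. Of 45 listed, 38 were tested, 15 were called lower (39.5%, against 6.89% of all genes) and 1 higher (2.6%, against 8.51%), with a median log2 change of -0.51. Without any 1 array the number called lower lay between 13 and 17. Sycp1, the transverse filament of the synaptonemal complex that joins paired chromosomes, read 3144, 5273 and 3059 at gd18 and 712, 902 and 1001 at pnd2 (log2 change -2.06 ± 0.32 (SE), adjusted p = 0.000278). Sycp2, of the chromosome axis, read 1133, 1929 and 1354 at gd18 and 267, 213 and 351 at pnd2 (log2 change -2.27 ± 0.25 (SE), adjusted p = 1.05e-05). Both groups of 3 arrays were clear of each other. Sycp3, the axis partner of SYCP2, read 12093, 14792 and 10685 at gd18 and 12565, 8735 and 15993 at pnd2 and was not called (adjusted p = 0.957), with pnd2 arrays on either side of the gd18 arrays. The 95% interval of its log2 change ran from -0.73 to 0.64, so a moderate change could have gone undetected.

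Of the recombination genes, Spo11, which makes the double-strand breaks of meiosis, read 301, 455 and 318 at gd18 and 15.9, 64.6 and 87.5 at pnd2 (log2 change -2.23 ± 0.33 (SE), adjusted p = 0.000199). Dmc1, the strand-exchange protein that repairs them, read 194, 379 and 294 at gd18 and 84.1, 121 and 94.2 at pnd2 (log2 change -1.25 ± 0.26 (SE), adjusted p = 0.0031). The pnd2 signals of Spo11 were below the filter value of 116.05 on every array. Meioc, which keeps germ cells in the meiotic programme, read 433, 793 and 911 at gd18 and 21.6, 26.4 and 98.4 at pnd2 (log2 change -3.27 ± 0.43 (SE), adjusted p = 6.46e-05), and its partner Ythdc2, chosen after its values were seen, changed by -0.95 ± 0.22. The gene listed as 4930447C04Rik, a synaptonemal complex component also known as Six6os1, changed by -2.77 ± 0.33. Other axis, central-element and telomere-attachment genes, likewise chosen after their values were seen, moved together, with -1.96 for Syce3, -1.51 for Stag3, -1.74 for Hormad1 and -1.70 for Majin. Mnd1, a cofactor of DMC1, was the exception, with 133, 100.5 and 125 at gd18 and 270, 375 and 464 at pnd2 (log2 change 1.38 ± 0.30 (SE), adjusted p = 0.00473). Stra8, the switch for meiotic entry, was low in both groups, with 83, 73 and 13.1 at gd18 and 34.8, 82.8 and 39.8 at pnd2 (adjusted p = 0.994), after a mean of 2990 at gd14.

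Several of the steepest falls were in germ cell genes better known from the testis. Taf7l, a germ cell variant of a general transcription factor subunit, read 5070.1, 7147 and 4049 at gd18 and 116, 180.3 and 354 at pnd2 (log2 change -4.53 ± 0.39 (SE), adjusted p = 5.34e-07), the largest fall of all named genes. Tex101, a germ cell surface protein, read 607, 1335 and 617 at gd18 and 9.16, 39.3 and 87.3 at pnd2 (log2 change -3.56 ± 0.47 (SE), adjusted p = 6.71e-05). Tex101 was low on every pnd2 array. Ccnb3, a cyclin of meiotic cells, changed by -3.43 ± 0.41, Adad1 by -3.05 ± 0.27, Tex16 by -3.55 ± 0.38 and Rhox13 by -3.33 ± 0.45. Stk31, a germ cell kinase with a tudor domain, changed by -2.01 ± 0.30, and Ddx25, a germ cell RNA helicase, by -1.58 ± 0.30. Over the list of germ cell identity and piRNA genes, 24 were tested, with a median of -0.54. Of these, 5 were called lower (20.8%, against 6.89% of all genes) and 2 higher (8.3%, near the 8.51% of all genes). The 2 higher ones, Piwil4, which passed the filter through pnd2 alone, and Tdrd5, lost their calls without pnd2 array 1 or gd18 array 6, which left none. Ddx4, or VASA, the germ cell helicase used to mark oocytes, read 3654, 5810.2 and 3877 at gd18 and 3403, 2658 and 2357 at pnd2 (adjusted p = 0.295). Dazl, an RNA-binding protein of germ cells, read 4643, 6657 and 3969.9 at gd18 and 3360.4, 2316 and 3112 at pnd2 (adjusted p = 0.227). Neither was called, although in both every pnd2 array was below every gd18 array.

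Some genes of the pluripotency programme that germ cells switch off at meiosis were higher at pnd2. Of 20 tested, 5 were called higher (25%, against 8.51% of all genes) and 0 lower, with a median of 0.07, and the 5 calls held without any 1 array. Pou5f1, or Oct4, which is also a gene of the growing oocyte, read 75.1, 29.6 and 46.5 at gd18 and 341, 263 and 254 at pnd2 (log2 change 1.98 ± 0.33 (SE), adjusted p = 0.000516). Sall4, a zinc finger factor of germ cells, rose by 1.93 ± 0.27, while its other tested probe set had 0.19 ± 0.29 and was not called. Lin28a, the inhibitor of let-7 maturation, read 93.2, 161 and 97.4 at gd18 and 1305, 1187 and 729 at pnd2 (log2 change 2.88 ± 0.38 (SE), adjusted p = 6.81e-05), and Dppa5a read 1054, 1257 and 947 at gd18 and 8778, 7754 and 5443 at pnd2 (log2 change 2.70 ± 0.21 (SE), adjusted p = 1.21e-07). In each of them the groups were well apart. Tfap2c rose by 2.11 ± 0.44, or by 1.14 with no call as the mean of its probe sets, while Sox2, Nanog, Prdm14 and Zfp42 were not called or not tested.

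Among genes of oocyte survival, Trp63, whose oocyte isoform guards against DNA damage, read 1504, 1247 and 702 at gd18 and 6008, 4946 and 5447 at pnd2 (log2 change 2.28 ± 0.26 (SE), adjusted p = 1.5e-05). Its mean had been 96 at gd16, or 74.2 without gd16 array 7. Chek2, the kinase that activates it, rose by 1.09 ± 0.15. Of 15 tested genes of the DNA damage checkpoint, 2 were called (13.3% higher, against 8.51% of all genes). Bcl2l10, an anti-apoptotic BCL2 relative that is strong in oocytes, read 148, 138 and 89.2 at gd18 and 1492, 1337 and 636 at pnd2 (log2 change 2.86 ± 0.39 (SE), adjusted p = 9.04e-05). The higher calls among anti-apoptotic genes were Bcl2l10, Birc3 and Birc5, and the lower ones Bcl2 (-0.90 ± 0.24) and Birc2 (-0.47 ± 0.13). Of 11 tested, this made 3 called higher (27.3%, against 8.51% of all genes) and 2 lower (18.2%, against 6.89%). Without pnd2 array 1 or gd18 array 6 these counts were 2 and 0, without pnd2 array 2 they were 3 and 0, and the call of Birc2 was also lost without gd18 array 5. Of 14 pro-apoptotic genes tested, 1 was called higher and 1 lower (7.1% each, near the 8.51% and 6.89% of all genes). These were Bok (0.62 ± 0.18) and Bmf (-0.74 ± 0.20). The call of Bok was lost without pnd2 array 1 or pnd2 array 2 or gd18 array 4 or gd18 array 5 or gd18 array 6 (adjusted p = 0.103, 0.0629, 0.0916, 0.0531 and 0.0612), and that of Bmf without pnd2 array 1 or gd18 array 4 or gd18 array 6 (adjusted p = 0.0601, 0.085 and 0.063). Of 22 autophagy genes tested, only Atg12 was called (4.5% higher, against 8.51% of all genes). It changed by 0.62 ± 0.16 and was not called without gd18 array 4 (adjusted p = 0.0526).

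The maintenance methyltransferase Dnmt1, which has an oocyte form, read 2342, 2043 and 1685 at gd18 and 5194, 5154 and 3387 at pnd2 (log2 change 1.15 ± 0.18 (SE), adjusted p = 0.000261), and its targeting factor Uhrf1 rose by 1.17 ± 0.25. Kdm1b, the demethylase needed to set maternal imprints, read 4717, 4627 and 3091 at gd18 and 8121, 6181 and 8147 at pnd2 (log2 change 0.86 ± 0.24 (SE), adjusted p = 0.0236), after a mean of 697 at gd16 (781 without array 7), and its call was lost without pnd2 array 1 or pnd2 array 3 or gd18 array 6 (adjusted p = 0.0946, 0.0668 and 0.126). Dnmt3a, the de novo methyltransferase of oocytes, read 3382, 3114 and 3247 at gd18 and 2538, 2416 and 1973 at pnd2 (log2 change -0.49 ± 0.12 (SE), adjusted p = 0.0119), lower at pnd2, and its call was lost without pnd2 array 3 (adjusted p = 0.054). Of 24 tested genes of DNA methylation and chromatin, 3 were called higher (12.5%, against 8.51% of all genes) and 2 lower (8.3%, against 6.89%).

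In the somatic compartment, some genes of the granulosa lineage rose and others fell. Of 33 tested, 5 were called higher (15.2%, against 8.51% of all genes) and 4 lower (12.1%, against 6.89%), with a median of -0.08. Of the 31 that did not pass the filter through pnd2 alone, 4 were called higher. Inha, the alpha subunit of inhibin, read 1639, 1184 and 1722 at gd18 and 6174, 6667 and 6580.3 at pnd2 (log2 change 2.09 ± 0.19 (SE), adjusted p = 7.88e-07), with narrow and widely separated groups. Inhbb, the beta B subunit of inhibins and activins, rose by 1.08 ± 0.20. Nr5a2, the nuclear receptor LRH-1 of granulosa cells, read 493, 354 and 690.1 at gd18 and 1342, 1781 and 2282 at pnd2 (log2 change 1.77 ± 0.25 (SE), adjusted p = 0.000144), and Slc18a2, a monoamine transporter, read 495, 311 and 447 at gd18 and 1656, 1530.5 and 2389.9 at pnd2 (log2 change 2.07 ± 0.33 (SE), adjusted p = 0.00033). Esr2, the estrogen receptor of granulosa cells, rose from low signals, with 6.64, 31.7 and 16.5 at gd18 and 130, 149 and 94 at pnd2 (log2 change 1.66 ± 0.36 (SE), adjusted p = 0.00486), and passed the filter through pnd2 alone. All of these had pnd2 arrays above the gd18 arrays.

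Bmp2, a ligand of fetal pregranulosa cells, fell, with 1585, 1459 and 1253 at gd18 and 251, 201 and 599 at pnd2 (log2 change -2.07 ± 0.38 (SE), adjusted p = 0.00122). Lgr5, the R-spondin receptor that marks cortical pregranulosa and surface cells before birth, read 1676, 1999 and 1751 at gd18 and 695, 770 and 1010.4 at pnd2 (log2 change -1.12 ± 0.24 (SE), adjusted p = 0.00449). Lhx9, a factor of the early gonad, changed by -1.08 ± 0.20, while its other tested probe sets had -0.45, -0.56 and -0.36 and were not called. In each of these genes, by the probe set that stands for it, every pnd2 array was lower than every gd18 array. Kitl, the follicle cell ligand of KIT, read 8581, 8677 and 11972 at gd18 and 5929, 4893 and 6336 at pnd2 (log2 change -0.76 ± 0.19 (SE), adjusted p = 0.011), and its call was lost without pnd2 array 2 or gd18 array 6 (adjusted p = 0.0562 and 0.0715). Foxl2, which maintains granulosa identity, read 2457, 2275 and 2390 at gd18 and 3113, 3219 and 3568 at pnd2 and was not called (adjusted p = 0.194). Fst, the activin antagonist, read 2859, 3379.6 and 3872 at gd18 and 3277, 2989 and 3480.3 at pnd2 (adjusted p = 0.949), with overlap. Amh, a product of growing follicles, and Fshr, the receptor of follicle-stimulating hormone, were below the filter, Amh with 11.2, 7.2 and 3.77 at gd18 and 3.93, 14.6 and 3.16 at pnd2 and Fshr with 31.3, 65.1 and 28.5 at gd18 and 82.7, 78 and 78.3 at pnd2.

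**Figure D4:**
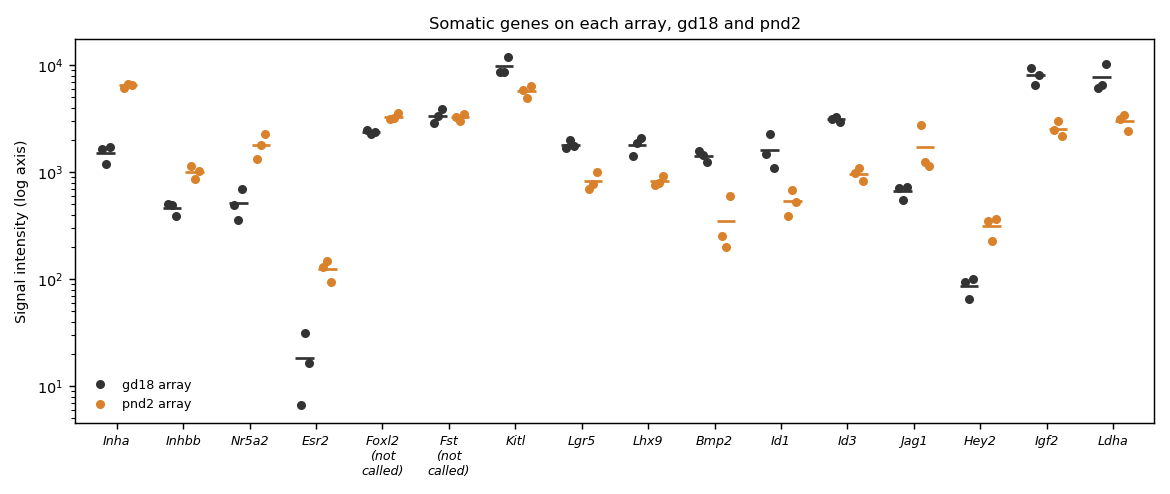
Signal intensity on a log axis for 16 genes of the somatic compartment, with 1 point per array (dark, gd18; orange, pnd2) and a bar at the mean of the 3 arrays. Inha, Nr5a2 and Esr2 lie higher at pnd2, Bmp2, Lgr5, Lhx9, Id1, Id3, Igf2 and Ldha lower, and Fst overlaps.

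The Id genes, textbook targets of BMP signalling that encode inhibitors of helix-loop-helix factors, fell together: Id1, Id2, Id3 and Id4 were all called lower. Id3 read 3142, 3271 and 2925 at gd18 and 992, 1089.6 and 828 at pnd2 (log2 change -1.66 ± 0.21 (SE), adjusted p = 5.48e-05) and Id1 read 1479, 2291 and 1089 at gd18 and 391, 679 and 531 at pnd2 (log2 change -1.51 ± 0.26 (SE), adjusted p = 0.000808). Both were lower on every pnd2 array. Id2 changed by -0.98 ± 0.24, which was no longer called without pnd2 array 1 (adjusted p = 0.062), and Id4 by -1.05 ± 0.34, which was no longer called without pnd2 array 1 or pnd2 array 3 or gd18 array 4 or gd18 array 5 or gd18 array 6 (adjusted p = 0.134, 0.172, 0.0541, 0.158 and 0.12). Of 34 tested genes of the TGF-beta, activin and BMP pathway, 5 were called higher and 5 lower (14.7% each, against 8.51% and 6.89% of all genes), with a median of -0.18. Among the ligands and receptors called, Bmp4 rose by 1.06 ± 0.28, though not without gd18 array 5 (adjusted p = 0.0954), and Bmp6 by 0.91 ± 0.25, though not without pnd2 array 1 or pnd2 array 2 or gd18 array 5 (adjusted p = 0.0693, 0.0736 and 0.0934). Without gd18 array 5 the higher calls of this list dropped to 2. Without pnd2 array 1 they dropped to 3 and the lower calls to 3, and without pnd2 array 2 the higher calls dropped to 3.

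In the Notch pathway, through which pregranulosa cells take part in breaking up the nests, 4 of 22 tested genes were called higher (18.2%, against 8.51% of all genes). Only 1 was called lower (4.5%, against 6.89%). The rising ones were the targets Hey1 (0.98 ± 0.20), Hey2 (1.54 ± 0.37) and Heyl (1.06 ± 0.25, not called as the mean of its probe sets) and the ligand Jag1. Jag1 read 715, 549 and 725 at gd18 and 2758, 1233 and 1152 at pnd2 (log2 change 1.22 ± 0.33 (SE), adjusted p = 0.0195), with pnd2 array 1 far above the other pnd2 arrays, and its call was lost without pnd2 array 1 or gd18 array 5 (adjusted p = 0.135 and 0.0787). Hes1, a further target, went the other way, at -0.59 ± 0.18, and was no longer called without pnd2 array 1 or gd18 array 5 or gd18 array 6 (adjusted p = 0.204, 0.102 and 0.154). Notch2, the receptor of pregranulosa cells, read 4638, 3861 and 4777 at gd18 and 3946, 4109 and 3882 at pnd2 (adjusted p = 0.593). Of 30 Wnt genes tested, 5 were called lower (16.7%, against 6.89% of all genes), or 3 without pnd2 array 1, and 1 higher (3.3%, against 8.51%), with a median of -0.35. The higher one was Rspo2, an oocyte-derived Wnt enhancer, with 771, 835 and 385 at gd18 and 2631, 2167 and 1397 at pnd2 (log2 change 1.62 ± 0.29 (SE), adjusted p = 0.0012), and the lower ones included Lgr5 and Wnt5a (-0.98 ± 0.23, not called with the 6 arrays alone). In the hedgehog pathway 3 of 11 were called higher (27.3%, against 8.51% of all genes), among them Gli2 (0.65 ± 0.16). Without Dhh, which passed the filter through pnd2 alone, it was 2 of 10. Lower calls were 2 (18.2%, against 6.89%), among them Boc (-0.85 ± 0.18). Without pnd2 array 1 the higher and lower calls of this pathway were 1 and 1.

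Of 9 tested genes of steroid hormone synthesis, 2 were called higher (22.2%, against 8.51% of all genes) and 0 lower. Hsd3b1, which makes progesterone from pregnenolone, read 449, 564 and 475 at gd18 and 919.7, 912 and 2292 at pnd2 (log2 change 1.28 ± 0.27 (SE), adjusted p = 0.00339), with the highest value on pnd2 array 3. Star, which carries cholesterol into mitochondria, read 162, 114 and 165 at gd18 and 110.3, 201 and 113 at pnd2 (adjusted p = 0.885), and Cyp11a1 and Cyp17a1 were not tested or not called. Of 20 cholesterol synthesis genes, 5 were called higher (25%, against 8.51% of all genes) and 0 lower, with a median of 0.3 and 18 of the 20 above 0. Fdft1, or squalene synthase, read 3368, 3325 and 2469 at gd18 and 6997, 6846 and 6817 at pnd2 (log2 change 1.18 ± 0.17 (SE), adjusted p = 0.000188), and Insig1, a sensor of sterols, rose by 0.66 ± 0.15. Without any 1 array the 5 calls dropped to between 2 and 5, the lowest without gd18 array 5, and to 3 without any of the pnd2 arrays or gd18 array 6.

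Of 25 tested genes of the IGF axis and imprinted loci, which include drivers of fetal growth, 9 were called lower (36%, against 6.89% of all genes). Only 1 was called higher (4%, against 8.51%), and the median was -0.38. Igf2, the paternally expressed fetal growth factor, read 9401, 6569.8 and 8107 at gd18 and 2464, 3011 and 2172 at pnd2 (log2 change -1.64 ± 0.17 (SE), adjusted p = 7.01e-06). Cdkn1c, the maternally expressed cell cycle inhibitor, read 6341, 8188 and 7955 at gd18 and 2078, 3086 and 2976 at pnd2 (log2 change -1.47 ± 0.17 (SE), adjusted p = 1.18e-05), and Igf2bp1, an RNA-binding protein of fetal tissues, read 252, 205 and 198 at gd18 and 23.6, 8.78 and 45.7 at pnd2 (log2 change -2.16 ± 0.27 (SE), adjusted p = 3.01e-05). All 3 were lower on every pnd2 array. Without any 1 array 6 to 8 members were called lower. Igf1 and Igf1r, the postnatal ligand and its receptor, were tested and not called.

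Of 30 tested genes that are induced by low oxygen or belong to glycolysis, kept as 1 list, 14 were called lower (46.7%, against 6.89% of all genes) and 0 higher, with a median of -0.51. Without pnd2 array 3, 9 were called lower. Ldha, which turns pyruvate into lactate, read 6183, 6577 and 10297 at gd18 and 3130.1, 3420.4 and 2408 at pnd2 (log2 change -1.33 ± 0.19 (SE), adjusted p = 0.000131), and Pfkl, a phosphofructokinase, read 3529, 2895 and 3798 at gd18 and 1311, 1598 and 833 at pnd2 (log2 change -1.47 ± 0.20 (SE), adjusted p = 9.45e-05). Hif3a, an oxygen-regulated transcription factor subunit, read 1437, 1154 and 1272 at gd18 and 242, 382 and 274 at pnd2 (log2 change -2.01 ± 0.22 (SE), adjusted p = 8.16e-06), and Kdm3a, a demethylase induced in hypoxia, changed by -1.14 ± 0.17. The groups were apart in each of these 4 genes. Vegfa, the vascular growth factor, changed by -1.14 ± 0.26 and was chosen after its values were seen. Hif1a, whose protein rather than RNA responds to oxygen, was not called. Among 17 glucocorticoid-response genes, 4 were called lower (23.5%, against 6.89% of all genes) and 0 higher, with Tsc22d3 at -1.20 ± 0.20 and a list median of -0.4.

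Few respiratory chain genes were called. Of 42 tested, 6 were called higher (14.3%, against 8.51% of all genes) and 0 lower, 34 had a log2 change above 0, and the median was 0.21. Ndufs8, a subunit of complex I, read 2916, 2743 and 2467 at gd18 and 3776, 3927 and 4122 at pnd2 (log2 change 0.54 ± 0.12 (SE), adjusted p = 0.00751), although 1 of its 6 tested probe sets had a change of -0.46 that was not called. The count dropped to 2 without pnd2 array 1 and to 2 without gd18 array 6, to 3 with the 6 arrays alone or with the mean of a gene's probe sets, and to 0 at 2-fold.

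Of 43 tested cell cycle genes, 14 were called higher (32.6%, against 8.51% of all genes) and 0 lower, 37 had a change above 0, and the median was 0.42. Ube2c, which works with the anaphase-promoting complex and has uses in oocyte meiosis as well as mitosis, read 496, 361 and 374 at gd18 and 2566, 1992 and 2439 at pnd2 (log2 change 2.42 ± 0.18 (SE), adjusted p = 9.01e-08). Nusap1, a spindle protein, rose by 1.23 ± 0.16, and Tpx2, an activator of Aurora A, by 1.05 ± 0.21. Mki67, the proliferation marker, read 4311, 3443 and 3886 at gd18 and 5048, 5088 and 5118 at pnd2, with no overlap, and missed the threshold (adjusted p = 0.0665). Without pnd2 array 1 the number called dropped to 8, and 3 were higher by at least 2-fold.

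Matrix genes were counted in separate lists, and a difference between the lists was not tested. Of 19 basement membrane genes, 4 were called higher (21.1%, against 8.51% of all genes) and 1 lower (5.3%, against 6.89%), with a median of 0.2. Without the member that passed through pnd2 alone, 3 of 18 were called higher. Col4a4, a chain of collagen IV, read 212, 332 and 638 at gd18 and 1166, 1197 and 1458 at pnd2 (log2 change 1.74 ± 0.27 (SE), adjusted p = 0.000317), and Col4a3 rose by 1.70 ± 0.39 (through the filter by pnd2 alone) and Lama2 by 1.16 ± 0.25. Of 28 fibrillar and stromal matrix genes, 3 were called higher (10.7%, against 8.51% of all genes) and 1 lower (3.6%, against 6.89%), and none was higher without pnd2 array 1 or gd18 array 5. Of 20 follicle dormancy and PI3K genes, 0 were called higher and 2 lower (10%, against 6.89% of all genes), and 0 were lower without pnd2 array 2. Foxo3, which holds primordial follicles dormant, read 5319, 5565 and 4086 at gd18 and 5241, 6375 and 3881 at pnd2 (adjusted p = 0.933), with a 95% interval of -0.35 to 0.41. Cdkn1b, a further brake on activation, read 1133, 1196 and 1113 at gd18 and 1392, 1329.6 and 1306 at pnd2 (adjusted p = 0.358).

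**Figure D5:**
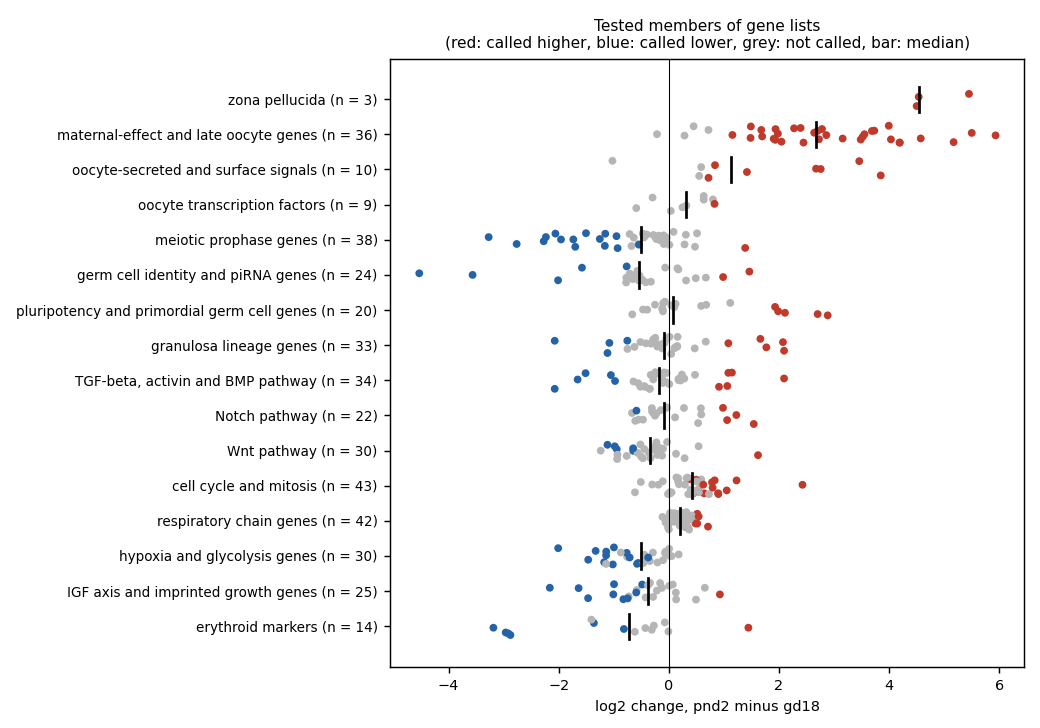
Log2 change from gd18 to pnd2 (x) of every tested member of 16 gene lists, 1 point per gene, with the number tested in brackets and a black bar at the list's median. Maternal-effect genes lie almost wholly to the right (32 of 36 called higher, red), meiotic, hypoxia and glycolysis genes mostly to the left (15 of 38 and 14 of 30 called lower, blue), and granulosa and BMP genes on both sides.

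Markers of other cell types were read beside these lists, and their part in the results above was not tested. The shares to set beside the marker counts are 8.51% called higher and 6.89% called lower, over all genes tested. Red cell genes were lower at pnd2, with 6 of 14 tested called lower and 1 higher, and a summed signal of 16 genes of 5930 to 11965 at gd18 and 2296 to 3022 at pnd2. Hbb-b2, an adult beta-globin that shares sequence with its neighbour, read 563, 1651 and 313 at gd18 and 39.9, 52.3 and 44.8 at pnd2 (log2 change -3.19 ± 0.44 (SE), adjusted p = 0.000103; the other tested probe set had -0.03 and was not called, and the mean of both gave -1.61), and Alas2, which starts heme synthesis in red cells, read 912, 2965 and 394 at gd18 and 135, 145 and 54.8 at pnd2 (log2 change -2.96 ± 0.48 (SE), adjusted p = 0.000477). Hbb-y, an embryonic globin, read 193, 475 and 231 at gd18 and 2.1, 18 and 13.8 at pnd2 (log2 change -2.88 ± 0.26 (SE), adjusted p = 7.88e-07). Slc4a1, the anion exchanger of red cells, changed by -2.92 ± 0.51. The gd18 arrays differed widely among themselves in the globin genes and Alas2, with array 5 the highest. Afp, a fetal serum protein gene, read 2053, 71.3 and 106 at gd18 and 0.95, 0.52 and 14.4 at pnd2 (log2 change -3.09 ± 0.95 (SE), adjusted p = 0.0377), which rests mainly on gd18 array 4, and was not called without pnd2 array 1 or pnd2 array 2 or pnd2 array 3 or gd18 array 4 (adjusted p = 0.109, 0.0944, 0.0574 and 0.195). Endothelial genes gave 4 lower calls of 21, or 0 without pnd2 array 1, with summed signals of 7624 to 11405 at gd18 and 5856 to 9034 at pnd2. Macrophage and leukocyte genes gave 1 lower call of 19, surface epithelium 2 lower of 18, and smooth muscle, mesonephros, nerve and lymphoid or mast cell lists 0 calls in either direction, of 14, 12, 14 and 7 tested. Striated muscle gave 1 higher call of 10, Ttn, with 367, 341 and 242 at gd18 and 1453, 1155 and 2220.1 at pnd2 (log2 change 2.20 ± 0.34 (SE), adjusted p = 0.000306). The ovarian stroma and theca precursor list gave 2 higher and 1 lower call of 13, and its summed signal ran from 28039 to 43847 at gd18 against 39269 to 48948 at pnd2. The adrenal and testis list, read beside the steroid genes, gave 2 higher calls of 6, Dhh and Ptgds, or 0 without pnd2 array 1, pnd2 array 2, gd18 array 5 or gd18 array 6. Its adrenal enzyme genes Cyp11b1, Cyp11b2 and Cyp21a1 were under the filter at both stages. The adipose list gave 1 higher call of 5, Cd36, with 1.66.

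The class I histocompatibility genes H2-K1, H2-D1 and H2-M3 were called higher, at 1.49, 1.03 and 1.04, out of 25 interferon and class I genes tested, with 1 lower. As shares this was 12% higher and 4% lower, against 8.51% and 6.89% of all genes. H2-K1 read 718, 728 and 822 at gd18 and 4015, 1931 and 1311 at pnd2 (log2 change 1.49 ± 0.27 (SE), adjusted p = 0.00128), with a wide spread among the pnd2 arrays and array 1 the highest. Without pnd2 array 1, 1 of the 3 was still called. The call of H2-D1 was lost without pnd2 array 1 or gd18 array 4 or gd18 array 5 or gd18 array 6 (adjusted p = 0.188, 0.0583, 0.0963 and 0.0651), and that of H2-M3 without pnd2 array 1 (adjusted p = 0.0824). These genes are close in sequence, so their probe sets may share signal.

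The genes called were also read through the earlier stages. Of the 1071 called higher, 899 (83.9%) had their highest stage mean at pnd2, and 119 (11.1%) had it at gd11. Among genes not called, 18% had it at pnd2 and 22.7% at gd11. Genes were called on pnd2 against gd18, so the first share partly restates how they were chosen. Of the 867 called lower, 264 had their highest mean at gd16, 191 at gd18 and 183 at gd14. Their lowest mean was at pnd2 for 565, against 2220 of the 10654 genes not called, and the same limit applies. Steps that share no array with the present comparison were set beside it. Of the genes called lower, 221 (25.5%) had been called higher from gd12 to gd14, the step at which meiosis starts, against 11.6% of all genes tested, and these were 15.2% of the genes called higher at that step. Of the genes called higher, 109 (10.2%) had been called higher there. From gd14 to gd16, where 11.4% of all genes were called higher, the shares were 17% of the genes called lower at pnd2 and 9.2% of those called higher. Without gd16 array 7 these shares were 12.1% and 6%, against 8% of all genes.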

How the data were processed

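Whole-ovary total RNA went through 2 rounds of amplification (Affymetrix Two-Cycle protocol) and, biotin-labelled, onto Mouse430_2 arrays, per the labels. The deposited values are linear signal intensities, 1 per probe set, which the submitters' processing notes credit to GCOS (version and settings not given in the sources used here). No detection calls were used. The deposited intensity values had a 2% trimmed mean of 500 on every array and were not normalized again.

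Values were transformed as log2(signal + 31.48), the 25th percentile of all ovary values. Probe sets were tested if any stage mean exceeded 116.05, the median of all ovary values. limma 3.58.1 in R 4.3.3 fitted 1 term per stage to the 18 ovary arrays (lmFit, contrasts, eBayes with trend; 12 residual degrees of freedom), with two-sided p-values adjusted by Benjamini-Hochberg over all 26431 probe sets. Of 45101 probe sets, 34958 had 1 gene symbol in the platform annotation, 932 several and 9211 none; 64 controls were left out. The brightest tested probe set stood for a gene, and 26 of 427 genes with at least 2 called probe sets had calls in both directions. The deposited table holds no counts, so the number of arrays limits precision. Replicates are separate animals per the series' text, though the labels give the gd11, gd12 and gd14 samples as pools. On simulated data for this comparison, over 26896 probe sets, 65% of changes of log2 1 and 88% of changes of log2 2 were recovered, and 5.56% of the calls were false. Only 200 probe sets were changed there, with independent normal noise of the same spread on every array. In the data 3446 were called and single arrays mattered, so these rates need not hold for them.

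Named genes were the 12 largest rises and falls among called genes with arrays that do not overlap (clone names left out), up to 5 called members per list and direction, and a panel of 40 genes, besides those said to be chosen after their values were seen. Members and lists were chosen with earlier results of these data known. Listed genes absent from the table given are not analysed here. Promoters are RefSeq's, build GRCm38.p6, 300 bases each, at the first listed start of a gene for the shares, of which 10175 of the 12592 genes had one.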

Additional observations from a re-analysis of the deposited data

How the results depend on the processing

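The number of probe sets called (3446 in the fit reported, 1748 higher and 1698 lower) and of genes called (1938) depended most on single arrays and on the threshold. Leaving out in turn each of 7 arrays, the 6 compared and gd16 array 7, gave 1842 to 3579 probe sets, 1051 to 1827 higher and 791 to 1752 lower, and 1078 to 2010 genes; the lowest values were without pnd2 array 1, and the highest were without gd16 array 7, which entered only the shared spread. Without gd18 array 6 the probe sets called were 2161, with 962 lower, and the genes 1276; without gd18 array 5 the lower ones were 1033. Asking in addition for a change of at least 2-fold left 1270 probe sets, 783 higher and 487 lower, and 754 genes. Weighting arrays by quality gave 2623 lower probe sets. Under the other pseudocounts, normalizations and filters, the 6 arrays alone, no mean-variance trend and the mean of a gene's probe sets, these counts stayed within 1.5 times the reported ones. Of the genes called in the fit reported, 1057 were called in the same direction without pnd2 array 1 and 1645 under median scaling. Of the 177 genes named as called, 114 were still called without any 1 of the 6 arrays compared, and none changed sign in any alternative fit. Of the 22 named as not called, 5 were called under some alternative: Kit, Dazl, Foxl2, Mki67 and Dppa2, the first under a higher pseudocount, median scaling, a stricter filter, the 6 arrays alone and array weights. No paired analysis was possible because the array numbers are not shared between the groups.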

Other observations

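Lactate dehydrogenase subunits moved in opposite directions. Ldhb, the subunit of oxidative tissues, was noticed after its values were seen, with 7863, 5480.4 and 8042 at gd18 and 17968, 18453 and 13621 at pnd2 (log2 change 1.23 ± 0.17 (SE), adjusted p = 0.000116), while Ldha, given above, changed by -1.33 ± 0.19. Both held their calls without any 1 array.

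X-linked genes made up 5 of the 12 largest falls (Taf7l, Tex16, Ccnb3, Rhox13 and Alas2). Of 446 tested genes on the X chromosome, 55 (12.3%) were called lower and 33 (7.4%) higher, against 6.89% and 8.51% of all genes. On the autosomes the share called lower ran from 3.9% on chromosome 15 to 9% on chromosome 3. X-linkage and germ cell expression were not separated here.

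Tktl1, a transketolase relative that is X-linked and was picked after its values were seen, was among the brightest genes to fall, with 10313, 12105 and 9386 at gd18 and 1593, 1733 and 3056 at pnd2 (log2 change -2.35 ± 0.31 (SE), adjusted p = 6.67e-05). Unc13c, a relative of synaptic vesicle priming proteins, also picked afterwards, was among the brightest to rise, with 1369.8, 597 and 743 at gd18 and 9339.8, 7129.7 and 7942 at pnd2 (log2 change 3.21 ± 0.27 (SE), adjusted p = 4.12e-07). In both the arrays of the groups were well apart.

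For some genes, probe sets disagreed. Among genes with called probe sets in both directions, Srsf6, a splicing factor, and Nap1l1, a histone chaperone, are examples, and such genes are best read per probe set.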
